A study of Homo sapiens with 4 samples.

Results

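The granins and the enzymes that process peptides in dense-core vesicles were examined in SH-SY5Y cells, an established human neuroblastoma line of sympathetic origin, after silencing of TSPAN8, a cell-surface tetraspanin. The list held 10 genes by symbol (CHGA, CHGB, SCG2, SCG3, SCG5, VGF, PCSK1, PCSK2, CPE and PAM), and every probe set that the array annotation assigned to 1 of them alone was taken, without regard to its values. This gave 11 probe sets of 8 genes among 54613 tested probe sets and 19775 named genes. The annotation used here named no probe set for PCSK1 or PCSK2, so the prohormone convertases were not analysed here. PAM had 3 probe sets (202336_s_at, 212958_x_at and 214620_x_at) and CPE had 2 (201117_s_at and 201116_s_at). The other 6 genes had 1 each: 204697_s_at for CHGA, 204260_at for CHGB, 204035_at for SCG2, 219196_at for SCG3, 203889_at for SCG5 and 205586_x_at for VGF.

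The series holds 4 arrays of SH-SY5Y cells, 1 per sample, in 2 groups of 2. Knockdown cells received small interfering RNA against TSPAN8 by the Accell self-delivery system, and the other group is labelled transfection control. Both groups were kept in serum-containing medium and taken after 72 h, and the control reagent and the sequence of the small interfering RNA are not given in the sources used here. Separate cultures are not named in the labels. The p-values therefore reflect how far these samples vary, and that variation may be technical.

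Dense-core vesicles store peptide hormones, neuropeptides and, in sympathetic cells, catecholamines, and release them on a calcium signal. Granins are acidic proteins that aggregate with calcium in the trans-Golgi network, help vesicles to form and are themselves cut into peptides. Precursors are cut at pairs of basic residues by prohormone convertases, carboxypeptidase E removes the basic residues left at the end, and peptidylglycine alpha-amidating monooxygenase turns a terminal glycine into an amide. Chromogranin A is a clinical marker of neuroblastoma and other neuroendocrine tumours.

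Several granin promoters are known to respond to cyclic AMP through the element TGACGTCA, which binds CREB1 and its relatives, and many neuroendocrine genes carry repressor element 1, bound by REST. RefSeq promoter windows (GRCh38.p14, 250 bases before to 50 after a start) were found for 6 of the 8 measured genes, 8 windows in all, because PAM has 3. CHGB and SCG2 were not in the table. TGACGTCA, which reads the same on both strands, was in 2 of these genes, CHGA and VGF, and in 649 of all 35116 windows (1.85%). The 250 bases before each start are shown because these are the members with the full element, which is in capitals (CHGA at chr14:92922900-92923149, plus strand, and VGF at chr7:101165570-101165819, minus strand).
CHGA: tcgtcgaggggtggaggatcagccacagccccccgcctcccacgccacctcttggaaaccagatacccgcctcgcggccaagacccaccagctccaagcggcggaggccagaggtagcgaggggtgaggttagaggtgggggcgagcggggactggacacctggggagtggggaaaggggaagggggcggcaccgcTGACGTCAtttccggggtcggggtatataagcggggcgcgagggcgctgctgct
VGF: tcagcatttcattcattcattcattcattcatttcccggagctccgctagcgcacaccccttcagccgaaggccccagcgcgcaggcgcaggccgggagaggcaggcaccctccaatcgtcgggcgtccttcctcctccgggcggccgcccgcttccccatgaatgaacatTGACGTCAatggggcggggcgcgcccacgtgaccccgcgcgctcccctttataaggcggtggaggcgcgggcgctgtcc
The element began 54 bases before the start of CHGA and 79 bases before that of VGF. Its shorter form TGACG, searched on both strands and contained in the full element, was also in the windows of SCG3, SCG5 and CPE and in 1 of the 3 of PAM, against 24.6% of all windows. The left part of repressor element 1, TTCAGCACC, searched on both strands, was found in SCG3 alone among these genes and in 132 of all windows (0.376%). There it preceded the right part, GGACAG (20.5% of windows when searched alone), on the same strand within 30 bases, an order found in 15 of the 35116 windows (0.0427%). This stretch, with both parts in capitals, begins 8 bases after the start of SCG3 at chr15:51681511-51681533 on the plus strand.
SCG3: TTCAGCACCcacagggcGGACAG
A match describes these letters only and is no measured binding site. The search for both parts of repressor element 1 allowed any spacing within 30 bases, so a match need not be an intact element.

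The silenced gene checked the labels. TSPAN8 read 6.25 and 6.35 (log2) in knockdown against 7.52 and 7.62 in control arrays, and it fell by 1.27 on the log2 scale, SE 0.062 (limma, adjusted p = 0.0026). It was the only one of the 54613 probe sets to pass (0.00183%). Correlations between arrays ran from 0.997 to 0.998 across probe sets, and probe sets are not replicates. Of 9 measured noradrenergic markers of this line, 7 lay above percentile 90 of the control arrays, but TH, the rate-limiting enzyme of catecholamine synthesis, lay at 20.5 and 16.2. Of 6 Schwann cell or melanocyte markers, 0 lay above that percentile and 3 lay below the median signal. Of 14 mesenchymal or fibroblast markers, 3 lay above percentile 90 and 4 below the median signal. The values of the mesenchymal markers on each array are given further below.

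All 11 probe sets gave signals far above those of hormone genes that such cells are not known to use. The gastrin, growth hormone, insulin, prolactin, glucagon and glycoprotein hormone alpha genes (GAST, GH1, INS, PRL, GCG and CGA) read between 5.98 and 6.54 on the control arrays, and all 6 lay below the array median. CHGB stood at 11.2 and 11.3 on the control arrays, at percentiles 97.1 and 97.3 of all probe sets. SCG5, the 7B2 chaperone of convertase 2, stood at 11.0 and 11.1, at percentile 96.6 on both. CHGA stood at 10.9 and 11.0, at percentiles 96.3 and 96.4. SCG3 was at percentiles 91.2 and 91.8, SCG2 at 85.4 and 87.1 and VGF at 83.3 and 83.4. Among the enzymes, the brighter probe set of CPE was at percentile 95.6 on both control arrays, and that of PAM at 95.3 and 95.0. Signals of different probe sets depend on their probes, so these percentiles describe the signal of each probe set and do not rank the transcripts by abundance. The 3 probe sets of PAM show the size of this effect, since their control means were 10.6, 10.5 and 8.54.

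**Figure D1:**
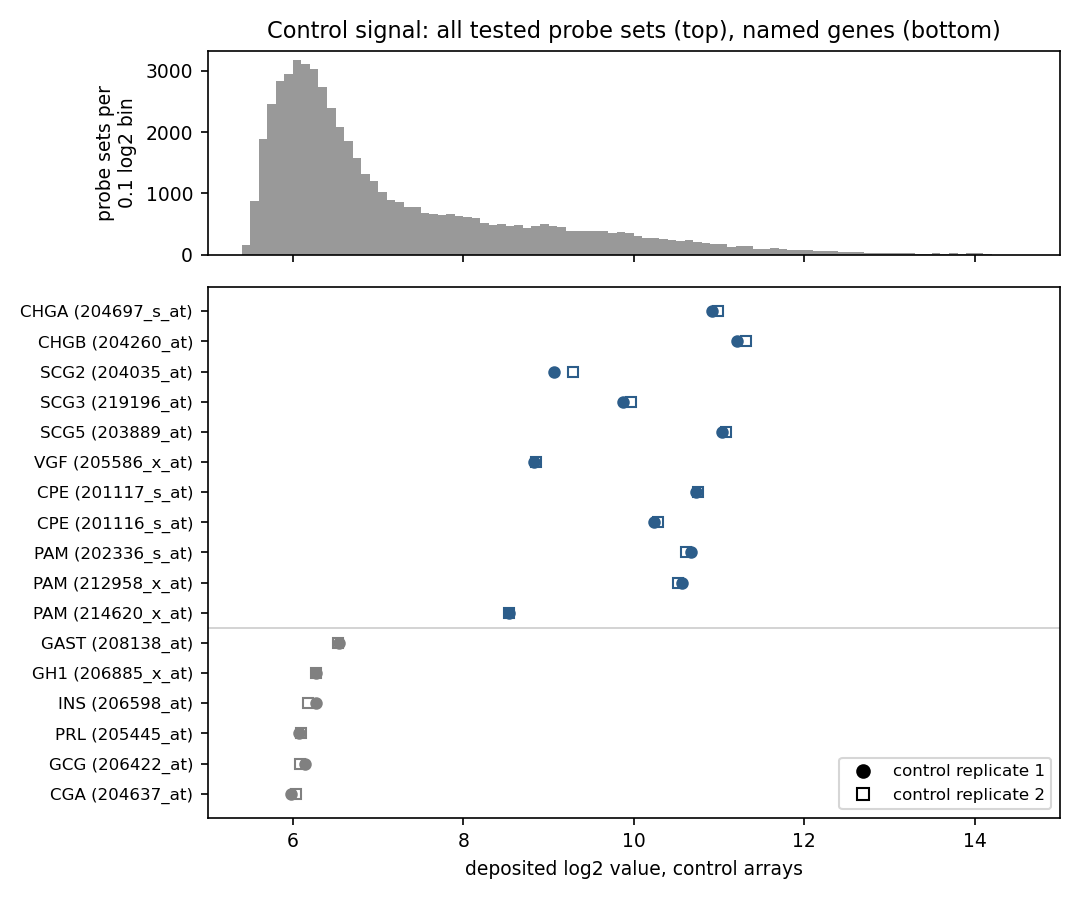
Control signal of the 11 member probe sets and of 6 hormone genes of other endocrine cells (log2 value on the horizontal axis, filled circles for control replicate 1 and open squares for control replicate 2), below a histogram of the mean control signal of all 54613 tested probe sets. Every member lies at 8.54 or higher, and the hormone genes lie between 5.98 and 6.54, in the main peak of the histogram.

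None of the 11 probe sets passed over all probe sets (limma, smallest adjusted p = 0.58), where 0.00183% of all did. At an unadjusted p under 0.05, 2 were lower in knockdown cells, CHGA and CHGB, and 0 were higher, while 4.12% of all probe sets were lower and 3.72% higher at that level. Both knockdown arrays lay below both control arrays for 2 of the 11 and above them for 1, against 19.8% and 17.7% of all probe sets. In sign, 3 of 11 were below control and 8 above, where 50.0% of all were below. Counted with 1 probe set per gene, 3 of the 8 genes were below and 5 above, with a median difference of 0.036 (log2), against -0.0094 over all 19775 genes. The members thus lay on both sides of control. With 2 arrays against 2, an exact permutation test of a single gene cannot go below 0.333 (two-sided), so only the fit across all probe sets was used.

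The chromogranins, which drive the formation of the vesicle core, had the lowest differences of the list, knockdown minus control. CHGA, the precursor of peptides such as vasostatin, catestatin and pancreastatin, read 10.60 and 10.74 in knockdown against 10.92 and 10.99 in control arrays. The groups did not overlap, with a gap of 0.18 between the nearest arrays, while the knockdown arrays were 0.14 apart and the control arrays 0.068. Its mean was 10.67 ± 0.096 (SD, n = 2) after knockdown, compared with 10.96 ± 0.048 (SD, n = 2) in the controls. The difference was -0.29 ± 0.063 (SE), with a 95% interval of -0.43 to -0.14, or 82.1% of control on the linear scale with background left in (limma, adjusted p = 0.58). By p it ranked 196 of 54613. Without knockdown replicate 2 the difference was -0.35 and passed (adjusted p = 0.0086), in a fit with 1026 calls that assumes the lone knockdown array to vary like the controls, and without knockdown replicate 1 it was -0.22 and did not pass. With control replicate 1 or 2 left out it did not pass either (adjusted p = 0.96 and 0.92). Each fit named below without a knockdown array takes its spread from the control arrays in the same way, with 25 calls in all without knockdown replicate 1 and 1026 without knockdown replicate 2.

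CHGB, the precursor of secretolytin, gave the same order of arrays. It read 11.00 and 11.14 in knockdown against 11.21 and 11.32 in control arrays. The groups did not overlap, but the gap between the nearest arrays was 0.073, less than the distance within the knockdown group (0.15) or within the control group (0.10). The difference was -0.20 ± 0.068 (SE), with a 95% interval of -0.35 to -0.041, or 87.2% of control (limma, adjusted p = 0.61). Without knockdown replicate 1 it was -0.12. For both chromogranins knockdown replicate 1 was the lowest of the 4 arrays. In bulk samples, fewer cells of a type and less RNA per cell cannot be told apart.

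The secretogranins stood closer to control. SCG2, the precursor of secretoneurin, read 9.39 and 9.28 in knockdown against 9.07 and 9.28 in control arrays, so that the groups overlapped and the control arrays were 0.22 apart. Its difference was 0.16 ± 0.079 (SE), with an interval of -0.028 to 0.34 (limma, adjusted p = 0.67). It was 0.26 without control replicate 2 and 0.048 without control replicate 1, so the value rests on which control array is used.

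SCG3, which binds chromogranin A and tethers it to the cholesterol-rich vesicle membrane, read 9.87 and 9.88 in knockdown against 9.87 and 9.97 in control arrays. Its difference was -0.046 ± 0.057 (SE), with an interval of -0.18 to 0.085. SCG5 read 11.10 and 11.02 against 11.03 and 11.08, a difference of 0.0026 ± 0.056 (SE) with an interval of -0.13 to 0.13. Both groups overlapped for these 2 genes, and SCG5 had the difference nearest 0 of all members. Both intervals span 0 and hold differences of either sign.

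VGF, a neurotrophin-inducible granin cut into several neuropeptides, was the only member whose knockdown arrays both lay above the control arrays. It read 8.91 and 8.91 in knockdown against 8.83 and 8.85 in control arrays. The gap was 0.057 and the difference 0.070 ± 0.051 (SE), with an interval of -0.047 to 0.19 (limma, adjusted p = 0.78). The spread within each group was small (SD 0.0050 and 0.013, n = 2), and limma widens such a spread toward that of all probe sets. Its probe set belongs to a class (names with _x_) whose probes can also bind other transcripts. The dimmer probe sets of PAM are of the same class. VGF and CHGA, the 2 genes printed above with the same promoter element, thus had values on opposite sides of control, neither past the threshold, and the difference between them was not tested.

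**Figure D2:**
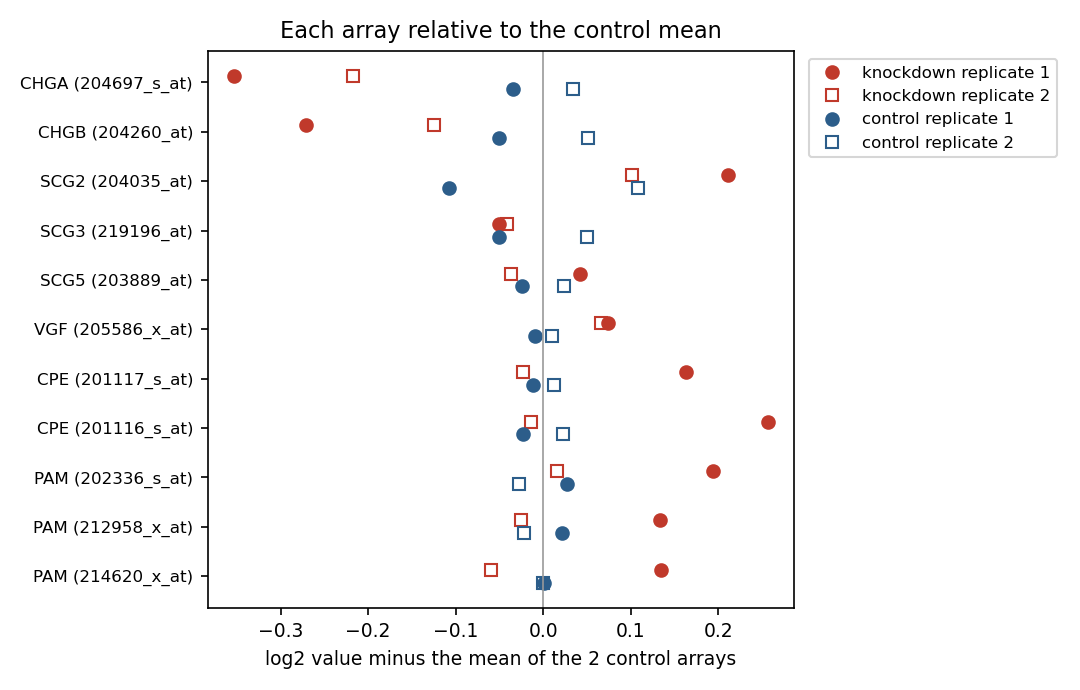
Log2 value of each array minus the mean of the 2 control arrays, for the 11 member probe sets (red for knockdown, blue for control, filled circles for replicate 1 and open squares for replicate 2; rows are offset to show points that coincide). CHGA and CHGB have both knockdown arrays on the left, while for CPE and PAM knockdown replicate 1 stands alone on the right.

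The enzymes that trim and amidate peptides were high on 1 knockdown array alone. CPE read 10.91 and 10.72 at its brighter probe set in knockdown against 10.73 and 10.76 in control arrays. Its other probe set read 10.52 and 10.25 against 10.24 and 10.29. At both, knockdown replicate 1 was the highest array and knockdown replicate 2 lay within 0.024 of the control mean. The differences were 0.070 ± 0.069 (SE) and 0.12 ± 0.086 (SE), with intervals of -0.091 to 0.23 and -0.077 to 0.32. Without knockdown replicate 1 they were -0.024 and -0.014.

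PAM showed the same pattern at all 3 of its probe sets. The brightest read 10.84 and 10.66 in knockdown against 10.67 and 10.61 in control arrays, the second 10.68 and 10.52 against 10.57 and 10.52, and the third 8.67 and 8.48 against 8.54 and 8.54. Knockdown replicate 1 was the highest array at each, by 0.18, 0.16 and 0.19 over knockdown replicate 2. The differences were 0.10 ± 0.069, 0.053 ± 0.065 and 0.037 ± 0.071 (SE), and without knockdown replicate 1 they were 0.016, -0.026 and -0.060. The probe sets of a gene were read on the same samples, so a shared pattern is not independent evidence.

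The 2 knockdown arrays therefore placed the list differently. On knockdown replicate 1, 8 of 11 probe sets lay above the control mean, with a median of 0.13 and a range of -0.35 to 0.26. On knockdown replicate 2, 3 of 11 did, with a median of -0.026 and a range of -0.22 to 0.10. Over all probe sets the medians were -0.0029 and -0.00020. CHGA, CHGB and SCG3 were below the control mean and SCG2 and VGF above it on both knockdown arrays, as was the brightest probe set of PAM, at 0.19 and 0.016.

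Mesenchymal and fibroblast markers were also highest on knockdown replicate 1 by their median. Of the 14 measured, 0 passed (limma, smallest adjusted p = 0.60) and 12 were above control, where 44.4% of all genes were, and their median deviation from the control mean was 0.18 on knockdown replicate 1 and 0.064 on the other knockdown array, while the control arrays stood at 0.018 and -0.018. Their summed log2 level ran from 118.9 to 119.5 in control and from 120.1 to 123.2 in knockdown cells. COL1A2, PRRX1, TWIST2 and COL6A3 lay below the median signal of the control arrays. Single markers stood further from the control mean than the median did. On knockdown replicate 1 DCN was at 0.93, COL3A1 at 0.66 and SNAI2 at 0.62. On knockdown replicate 2 these were at 0.064, 0.23 and 0.065. FN1 and PDGFRB were the 2 with differences below control, at -0.030 and -0.0059. Noradrenergic markers stood at a median of -0.054 and -0.015 on knockdown replicates 1 and 2. Their summed level ran from 95.3 to 95.6 in control and from 94.6 to 95.3 in knockdown cells. Of the 9 measured, 7 were below control and 2 above, where 44.4% of all genes were above. The lowest was DBH, at -0.53 and -0.17 on knockdown replicates 1 and 2, a difference of -0.35 ± 0.10 (SE, limma, adjusted p = 0.60). The part of either marker group in the values of CHGA, CHGB, CPE and PAM was not tested.

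**Figure D3:**
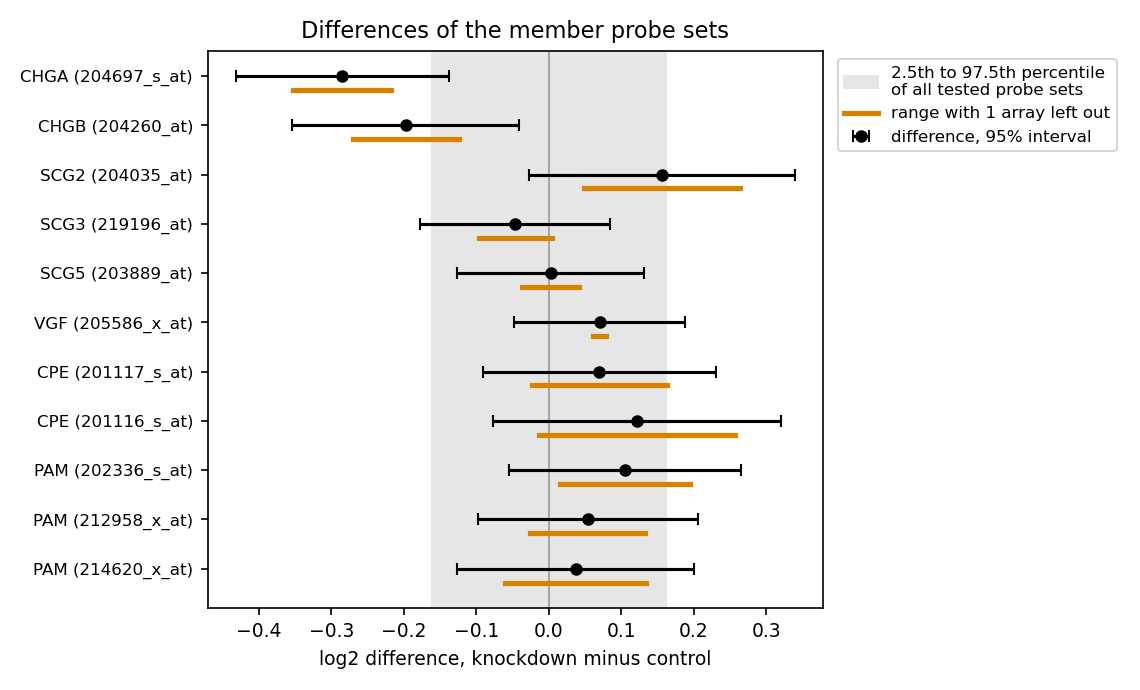
Log2 difference, knockdown minus control, of each member probe set with its 95% interval by limma (black), the range with 1 array left out (orange) and the central 95% of all tested probe sets (grey, -0.16 to 0.16). CHGA (-0.29) and CHGB (-0.20) lie outside the grey band, and SCG2 (0.16) lies just inside its edge.

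Other genes of the pathway, from a list of vesicle machinery and further processing enzymes, gave no call either. Of 54 measured of 56 listed, 0 passed over all probe sets (limma). Unadjusted, 6 had a p under 0.05 with lower values and 2 with higher values, where 5.57% and 2.39% of all 19775 genes did (1 probe set per gene). The list median was -0.022, against -0.0094 over all genes. The 4 with the smallest p were all below control: ICA1, an islet autoantigen that acts in vesicle budding (-0.27 ± 0.066, SE), MBTPS1, the site-1 protease of the convertase family (-0.21 ± 0.052, SE), VPS51, a subunit of Golgi tethering complexes (-0.20 ± 0.056, SE), and PTPRN2, a phosphatase-like protein of the vesicle membrane (-0.18 ± 0.054, SE). The adjusted p of each was between 0.58 and 0.60. For ICA1, 5 of 6 probe sets were below control and the other probe sets ran from -0.31 to 0.13, and it passed without knockdown replicate 2 (-0.31, adjusted p = 0.031) but not with any other array left out (adjusted p from 0.39 to 0.96). MBTPS1 and PTPRN2 were below control at all of their 2 and 3 probe sets.

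The 4 relatives of the members by function given here were named for their role after their values were seen. They stood near control at their brightest probe sets. They do not stand for the related enzymes as a class, since MBTPS1, given above, lay further from control. FURIN, the convertase of the constitutive pathway, was at 0.038 ± 0.051 (SE). CPD, a carboxypeptidase of the trans-Golgi network, was at -0.022 ± 0.051 (SE) and turned to 0.0073 after a second quantile normalization. PCSK1N, the proSAAS inhibitor of convertase 1, was at -0.032 ± 0.067 (SE). CYB561, which supplies electrons to the amidating enzyme inside the vesicle, was at -0.040 ± 0.068 (SE). Each of these estimates was smaller than its error. The 4 other probe sets of CPD ran from -0.069 ± 0.053 (SE) to 0.11 ± 0.054 (SE), so both ends exceeded their errors. Of its 5 probe sets 3 were below control. The 4 other probe sets of CYB561 ran from -0.034 to 0.011.

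Peptide precursors that such vesicles can carry were spread on both sides of control. Of 26 measured of 27 listed, 13 lay above the median signal of the control arrays, 0 passed (limma), 2 lower and 1 higher gene had an unadjusted p under 0.05, near the shares of 5.57% and 2.39% over all genes, and the median was 0.042. ADM, the adrenomedullin precursor, was at 0.16 ± 0.058 (SE), NPPC, the C-type natriuretic peptide, at -0.13 ± 0.053 (SE), and UCN, urocortin, at -0.14 ± 0.060 (SE). NPPC lay below the median signal, at percentiles 26.2 and 29.7 of the control arrays, and UCN was at -0.092 without knockdown replicate 1. NTS, the neurotensin precursor, read 7.10 and 6.72 in knockdown against 6.72 and 6.57 in control arrays. Its difference of 0.27 ± 0.12 (SE) was 0.075 without knockdown replicate 1, and it passed at 0.46 without knockdown replicate 2 (adjusted p = 0.0013) but not with any other array left out (adjusted p from 0.88 to 0.97).

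**Figure D4:**
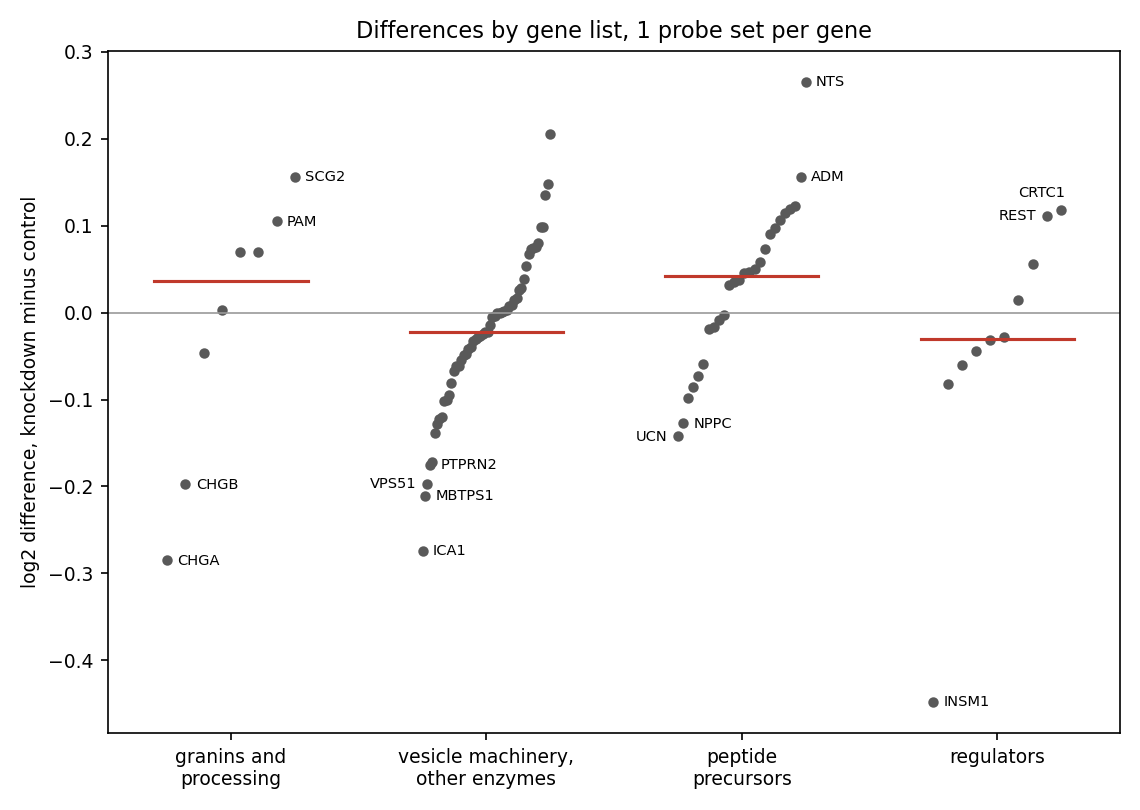
Log2 difference, knockdown minus control, of every measured gene of the 4 lists at its brightest probe set (points, sorted within each list; red lines are medians; named are genes from the naming rule beyond 0.1). The medians lie between -0.030 and 0.042, and INSM1 (-0.45) is the lowest point of all 4 lists.

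Of the members and the 3 pathway lists, the regulators known to act on granin and neuroendocrine genes held the largest difference. INSM1, a zinc-finger factor of neuroendocrine differentiation, read 6.73 and 6.87 in knockdown against 7.21 and 7.28 in control arrays, without overlap. Its difference of -0.45 ± 0.063 (SE) did not pass (limma, adjusted p = 0.37), and its other probe set was at -0.030. With 1 knockdown array left out it passed both times, at -0.38 (without replicate 1, adjusted p = 0.049) and -0.52 (without replicate 2, adjusted p = 0.00021). With a control array left out it did not pass, at -0.48 (without replicate 1, adjusted p = 0.71) and -0.42 (without replicate 2, adjusted p = 0.78). REST, the repressor of neuronal genes, was at 0.11 ± 0.060 (SE), with its other probe sets at -0.11 and 0.071. CRTC1, a coactivator of CREB1, was at 0.12 ± 0.065 (SE), RCOR1, a REST corepressor, at -0.082 ± 0.062 (SE), and CREB1, named for its binding to the element above after its values were seen, at -0.044 ± 0.051 (SE), with 4 of its 7 probe sets below control. Single arrays moved several of these values: RCOR1 was at -0.15 without knockdown replicate 1 and -0.015 without knockdown replicate 2, and without control replicate 1 or 2 REST was at 0.17 or 0.053 and CRTC1 at 0.19 or 0.045. Of the 10 measured regulators of 13 listed, 0 passed (limma), 1 lower and 0 higher genes had an unadjusted p under 0.05 (5.57% and 2.39% over all genes), and the median was -0.030.

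The genes whose 4 arrays most resembled those of CHGA were PRAF2, a protein of intracellular membrane traffic, DAND5, a secreted antagonist of nodal signalling, and STARD4, a sterol carrier. Their Euclidean distances from CHGA, over log2 values of 4 arrays centred on each gene's mean, were 0.017, 0.022 and 0.029, the smallest among 19767 genes. PRAF2 differed by -0.27, DAND5 by -0.30 and STARD4 by -0.30, and all 3 kept the knockdown arrays below the control arrays. They were selected for that likeness, so these values are a description. Each passed without knockdown replicate 2, at -0.34, -0.36 and -0.36. Without knockdown replicate 1 they were at -0.20, -0.23 and -0.23 and did not pass (adjusted p = 0.44, 0.38 and 0.35), nor did they with a control array left out.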

How the data were processed

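Per the submitters' processing notes, the deposited log2 values were made with RMA, which corrects background, equalizes array distributions and summarizes each probe set, in R 3.0.1, settings not given. The value table holds 54675 probe sets, of which 62 AFFX controls were left out. Genes were named by the platform annotation: 1 gene was given for 41091 tested probe sets, several for 1801, left unnamed here, and none was listed for 11721. A gene's brightest probe set over the 4 arrays represented it in lists.

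Knockdown and control were compared with limma 3.58.1 (lmFit, eBayes, R 4.3.3) on the 4 arrays with no covariate. Benjamini-Hochberg adjustment ran over 54613 probe sets, with a threshold of 0.05. P-values are two-sided, differences are knockdown minus control (log2), and intervals are 95%. Alternatives covered array centring, a second quantile normalization, a filter on dim probe sets, leaving out probe sets of shared target (_s_, _x_, _a_), array weights, eBayes with trend and robust settings, a replicate block, other thresholds, the mean or median over a gene's probe sets, and each array left out. The script was tested on simulated data. There was 1 comparison. Named besides the members were the 4 genes with the smallest p of each of 3 lists, and the 3 nearest to the member with the smallest p. FURIN, CPD, PCSK1N, CYB561, CREB1 and the 6 synaptotagmins lie outside that rule and were added after their values were seen. Members, lists and alternatives were chosen with earlier results of these data known. Neither detection calls nor scan dates were analysed here, which leaves background and batch unexamined. The number of arrays limits the precision, and RMA compresses differences near background. Figures were drawn in Python 3.11.15 (matplotlib 3.10.9).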

Additional observations from a re-analysis of the deposited data

How the results depend on the processing

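The direction of TSPAN8 held in each alternative run. Its call was lost under the replicate block alone, where the difference was -1.27 (adjusted p = 0.16) and 0 probe sets passed, members included. Replicate numbers come from the labels, but nothing there pairs the samples. Deviations of knockdown and control replicate 1 from their group means correlated at 0.051 over all probe sets. With 2 arrays per group, replicate 2 mirrors replicate 1, so it repeats this value and is no second check. At an unadjusted p under 0.05, 2 member probe sets and 4278 in all passed. With 1 array left out, 0 to 1 member probe sets and 1 to 1026 in all passed; the member was CHGA, and 25 passed without knockdown replicate 1. Of 74 member differences under other alternatives 1 changed sign, SCG5 at -0.011 with arrays centred on their medians, and so did CPD (0.0073, second quantile normalization). Most of the 74 could not change, because the filters, array weights, trend and robust settings and replicate block left each estimate as it was. Only the second quantile normalization, the centring and the averages over a gene's probe sets could move one. The run without _s_, _x_ and _a_ probe sets kept only CHGB, SCG2, SCG3 and SCG5 of the members, so it did not check CHGA, VGF, CPE or PAM. With 1 array left out, 7 of 44 changed sign: SCG3 ranged from -0.097 to 0.0041, SCG5 from -0.037 to 0.042, CPE from -0.024 to 0.16 and from -0.014 to 0.26, and PAM, at its 2 dimmer probe sets, from -0.026 to 0.13 and from -0.060 to 0.13. PCSK1N ranged from -0.11 to 0.043, CYB561 from -0.11 to 0.033, SYT1 from -0.10 to 0.048, SYT4 from -0.026 to 0.083 and SYT7 from -0.055 to 0.00058. Causes were not tested.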

Other observations

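Some synaptotagmins are calcium sensors of vesicle release. The 6 of the machinery list, which need not all sense calcium, are given here as a group chosen after their values were seen. SYT9 read 8.64 and 8.41 in knockdown against 8.35 and 8.29 in control arrays, without overlap. Its difference was 0.21 ± 0.080 (SE), 0.087 with knockdown replicate 1 left out, and it passed at 0.32 without knockdown replicate 2 (limma, adjusted p = 0.016) but with no other array left out. Its other probe sets ran from -0.0053 to 0.11. SYT5, below the median signal, was at 0.15 ± 0.057 (SE), and at 0.097 at its other probe set. SYT4, at percentile 99.5 of control replicate 1, was at 0.029 ± 0.058 (SE). At their brightest probe sets SYT1 was at -0.028 ± 0.065 (SE), SYT7 at -0.027 ± 0.054 (SE) and SYT11 at -0.054 ± 0.057 (SE), each smaller than its error. Their other probe sets were at 0.070 for SYT1, from -0.10 to 0.11 for SYT7 and from -0.091 to -0.036 for SYT11. Over all probe sets 0 of the 6 passed (limma), and SYT9 and SYT5 had an unadjusted p under 0.05 with higher values, as did 2.39% of all genes; a group picked on its values supports nothing by this count.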
